A study of Mus musculus with 9 samples.

Results

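DEK peaks that were called in a single library and lay inside gene bodies made up 3287 of the 9809 usable DEK peaks on chromosomes 1 to 19 in mouse haematopoietic stem cells (HSC). A peak was counted when its row carried a dot in the strand column of the list and it overlapped no peak of the other two DEK libraries by even 1 bp. It also had to lie within the annotated span of a protein-coding gene, more than 1 kb from every protein-coding gene end, and to overlap no H3K9ac peak of either genotype. Replicate 1 gave 644 such peaks, replicate 2 gave 660 and replicate 3 gave 1983. The members were thus chosen by measured peak calls and positions, the DEK and H3K9ac lists among them, so their number, place and strength are a description without a test.

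The lists come from CUT&Tag, in which a transposase tethered to an antibody cuts and tags DNA next to the bound protein. All mice were C57BL/6, 12 weeks old and carried the floxed allele Dekfl/fl. Animals without Cre are called fl, and Dekfl/fl,Tie2-Cre animals are called cKO. DEK was profiled in 3 libraries of about 20000 sorted fl HSC (gated as Lin-, Sca-1+, c-Kit+, CD48- and CD150+), and H3K9ac in HSC with 1 fl and 1 cKO library. H3K27ac and H3K4me3 were profiled in about 50000 sorted LSK cells (Lin-, Sca-1+ and c-Kit+), the wider progenitor gate that contains the HSC, again with 1 library per genotype. Tie2-Cre also acts in endothelial cells, and no DEK library came from cKO cells, so a DEK peak has no knockout background beside it. The labels do not say whether the DEK replicates came from separate mice, so their spread may be technical.

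DEK is an abundant DNA-binding chromatin protein and histone chaperone that takes part in transcription, replication and repair. H3K4me3 marks the start sites of genes that are active or poised, H3K27ac marks active promoters and enhancers, and H3K9ac marks active chromatin. The body of a gene is mostly intron, and the introns of the longest mammalian genes, many of which act in neurons, hold long stretches without any promoter. The gene table used here gives spans and no exons, so whether a peak lay in an exon, an intron or an untranslated region is not stated for any of them.

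The peaks' own bases are not printed, because only the RefSeq start windows (GRCm38.p6, the mm10 coordinates) were at hand. Shown here are the 250 bases before the start of 5 genes that held peaks of all 3 libraries. These genes were chosen to span the range of CpG content. The 250 bases before 2 starts inside a gene are also shown, where a peak overlapped the printed bases. All are written 5′ to 3′ on the strand of the gene, with each CG in capitals. The first is the splicing regulator Rbfox1 (chr16:5884543-5884792, plus strand), with 2 CG. The class IIa histone deacetylase gene Hdac9 (chr12:34917096-34917345, minus strand) had 0 CG. The adhesion gene Cntnap2 (chr6:45059811-45060060, plus strand) had 13, and the receptor phosphatase gene Ptprt (chr2:162661148-162661397, minus strand) had 39. Camta1, a calmodulin-binding transcription activator gene (chr4:151861769-151862018, minus strand), had 18 and was the one of these 5 with an H3K4me3 peak at its start. The inner starts belong to Hnrnpl, a splicing factor gene (chr7:28810640-28810889, plus strand), with 14 CG, and to the predicted gene Gm33989 (chr7:39552579-39552828, plus strand), with 27.
Rbfox1: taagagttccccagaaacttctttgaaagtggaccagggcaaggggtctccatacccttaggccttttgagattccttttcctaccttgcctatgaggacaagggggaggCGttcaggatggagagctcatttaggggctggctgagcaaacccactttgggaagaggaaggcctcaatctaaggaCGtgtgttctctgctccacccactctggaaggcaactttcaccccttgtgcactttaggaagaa
Hdac9: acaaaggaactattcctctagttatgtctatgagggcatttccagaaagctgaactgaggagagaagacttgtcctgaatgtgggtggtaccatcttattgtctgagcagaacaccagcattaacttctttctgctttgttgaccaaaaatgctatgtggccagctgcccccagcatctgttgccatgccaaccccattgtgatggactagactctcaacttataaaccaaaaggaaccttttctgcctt
Cntnap2: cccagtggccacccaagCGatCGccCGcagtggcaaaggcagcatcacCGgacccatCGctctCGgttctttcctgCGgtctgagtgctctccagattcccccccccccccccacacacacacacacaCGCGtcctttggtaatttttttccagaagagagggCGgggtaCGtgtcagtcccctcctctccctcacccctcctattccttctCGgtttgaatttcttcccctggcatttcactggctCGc
Ptprt: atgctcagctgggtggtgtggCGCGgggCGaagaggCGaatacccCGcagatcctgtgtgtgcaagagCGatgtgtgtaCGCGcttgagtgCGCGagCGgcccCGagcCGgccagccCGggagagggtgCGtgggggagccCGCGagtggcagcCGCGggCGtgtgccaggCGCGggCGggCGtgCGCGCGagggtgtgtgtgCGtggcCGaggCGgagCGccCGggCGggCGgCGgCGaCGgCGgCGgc
Camta1: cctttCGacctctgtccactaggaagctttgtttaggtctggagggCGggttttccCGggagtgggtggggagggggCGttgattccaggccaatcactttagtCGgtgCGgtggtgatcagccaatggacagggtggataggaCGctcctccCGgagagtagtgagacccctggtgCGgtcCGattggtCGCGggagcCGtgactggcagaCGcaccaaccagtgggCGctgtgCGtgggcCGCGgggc
Hnrnpl: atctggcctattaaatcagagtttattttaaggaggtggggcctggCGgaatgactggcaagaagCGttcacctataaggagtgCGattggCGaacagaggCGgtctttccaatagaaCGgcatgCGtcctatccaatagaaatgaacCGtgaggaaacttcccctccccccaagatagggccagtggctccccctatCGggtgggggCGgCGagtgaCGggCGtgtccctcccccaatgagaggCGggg
Gm33989: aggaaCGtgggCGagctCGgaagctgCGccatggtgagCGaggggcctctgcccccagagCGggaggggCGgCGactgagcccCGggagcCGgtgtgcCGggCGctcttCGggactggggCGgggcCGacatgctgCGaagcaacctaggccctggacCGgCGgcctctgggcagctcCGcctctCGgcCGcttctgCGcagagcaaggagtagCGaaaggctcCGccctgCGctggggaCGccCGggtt

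Ptprt had the most CG of these starts and carried no H3K4me3 peak in either genotype, as did Rbfox1, Hdac9 and Cntnap2. Over all 14514 genes that could hold a peak and had a RefSeq start, the median was 16 CG in the 300-base window around the start. Host genes, meaning genes that hold at least 1 of these peaks, had a median of 18 CG over 1750 matched genes. Hosts with H3K4me3 at a gene end had a median of 24 and hosts without it 12, against 22 and 6 in genes that held no peak.

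Single-library gene-body peaks took a similar share of each list. The share was 32.8% in replicate 1 (95% exact Clopper-Pearson interval 30.8 to 35.0%), 32.9% in replicate 2 (30.8 to 35.0%) and 34.0% in replicate 3 (32.8 to 35.2%). The lists carry no read counts, so sequencing depth is unknown and all intervals cover counting error only. Replicate 3 held 5839 usable peaks against 1962 and 2008 in the others. Its row names hold a Flag stem, while the other lists of DEK are stemmed DEK, so its antibody is not certain and the label was followed. Blood stem and progenitor marker genes had a fl H3K4me3 peak at a gene end in 14 of 15 cases (Lmo2 lacked one). Mature blood markers had one in 3 of 10, and endothelial, stromal, neuronal, and muscle and liver markers in 0 of 5, 0 of 6, 0 of 7 and 0 of 8.

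Most of these peaks were weak by the authors' own peak statistics. The median deposited −log10 q was 3.33 in replicate 1, 3.31 in replicate 2 and 3.38 in replicate 3, and the median fold enrichment over local background was 4.75, 4.51 and 4.93. The lowest −log10 q in the list of replicate 3, 2.04, was shared by 496 of its 1983 peaks. Peaks at a −log10 q of at least 5 made up 22.7%, 21.8% and 30.6% of the 3 sets. DEK peaks inside genes that were found in 2 or 3 libraries, 378 in all, had medians of 7.10, 7.31 and 10.9, whereas the 4687 single-library peaks outside genes had 3.33, 3.31 and 3.68. Median width was 373 bp, 399 bp and 217 bp in replicates 1 to 3.

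A small number stood far above these medians. In replicate 1 the strongest lay in Hivep1, a zinc-finger transcription factor gene (chr13:42094738-42095324, −log10 q 54.9, fold 18.0), followed by Samd5, Rapgef2, Slc2a2 and Cdh12 at −log10 q from 36.2 down to 26.5. In replicate 2 the strongest lay in the predicted gene LOC108168726 (chr2:3614590-3614994, −log10 q 44.3), followed by the calcium pump gene Atp2b2, Inpp5a, Rnf150 and Ap4s1 at 25.6 down to 19.3. In replicate 3 it lay in the amino acid transporter gene Slc38a6 (chr12:73348438-73348978, −log10 q 75.6, fold 25.8), followed by Bfar, Slc45a1, Acacb and Atp11a at 51.4 down to 38.2. At the distance limit, the closest peaks counted lay in Hoxd3 (1012 bp from a gene end, −log10 q 4.21) and Thoc6 (1015 bp, 4.09). The closest peaks left out lay in Mchr1 (987 bp, 2.04) and Bmp8a (984 bp, 4.85), all 4 in replicate 3.

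Per base, gene interiors held about as many single-library peaks as the genome outside genes. Gene interiors, the bases more than 1 kb from gene ends, covered 943 Mb and held 3.49 peaks per Mb (95% exact Poisson interval 3.37 to 3.61). Outside genes 1425 Mb held 3.29 per Mb (3.20 to 3.39). The library values inside and outside were 0.683 and 0.633 in replicate 1, 0.700 and 0.648 in replicate 2, and 2.10 and 2.01 in replicate 3. The inside value was the higher in each library.

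The peaks fell in 2254 host genes, 12.3% of the 18328 protein-coding genes with any interior bases. Replicate 1 reached 578 genes (3.15%), replicate 2 594 (3.24%) and replicate 3 1529 (8.34%). One peak per gene was the rule: 1674 hosts held 1 peak, 344 held 2, 127 held 3, and the highest number was 17. Because 30 peaks lay in overlapping genes, the peaks made 3319 pairs of peak and host.

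Host genes were long. Their median length was 107.6 kb, against 21.5 kb over all genes that could hold a peak and 18.1 kb in genes without one. Hosts of 1 library had a median of 90.5 kb, hosts of 2 libraries 270.2 kb and hosts of all 3 libraries 734 kb. Of genes of 2 to 10 kb, 1.06% held a peak, and the share was 4.59% at 10 to 30 kb, 15.1% at 30 to 100 kb and 42.1% at 100 to 300 kb. It reached 79.3% of the 478 genes of 300 to 1000 kb and 98.2% of the 55 genes over 1000 kb.

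**Figure D1:**
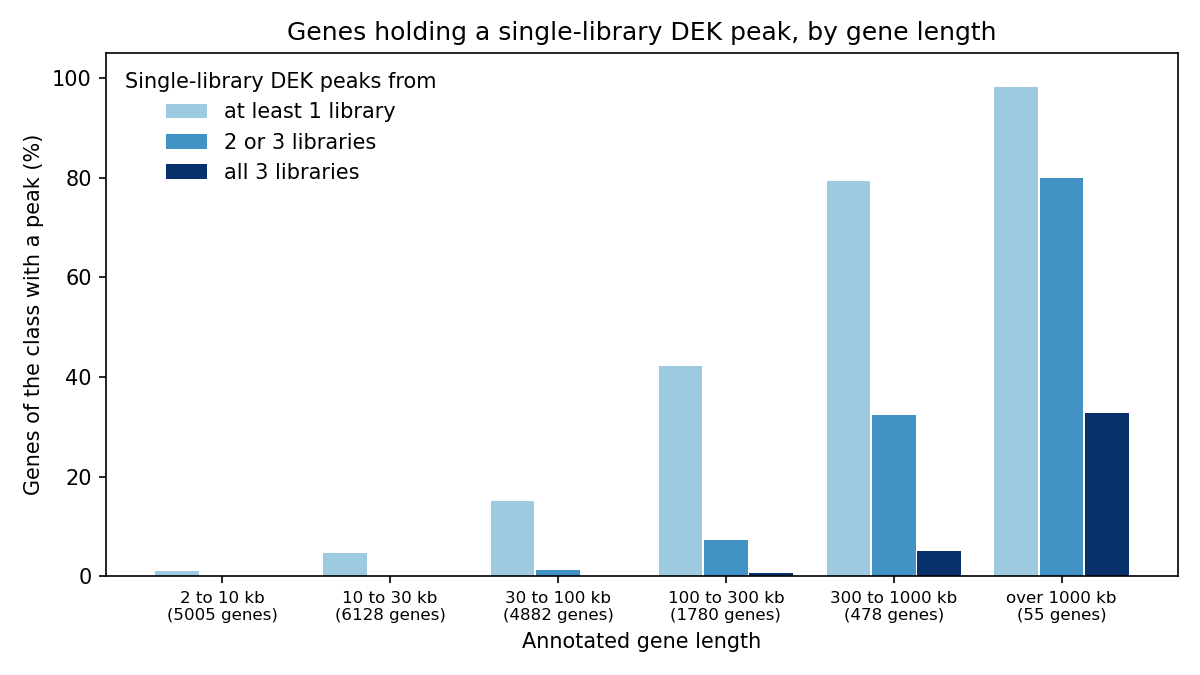
Bars give the percentage of genes in each class of annotated length (horizontal axis) that held single-library DEK peaks from at least 1, from 2 or 3, or from all 3 libraries. The share with at least 1 library runs from 1.06% at 2 to 10 kb to 98.2% over 1000 kb, and the share with all 3 libraries is 32.7% in the longest class.

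Peak density differed far less over gene length than the share of hosts. With all libraries together it was 2.99 peaks per Mb of interior at 2 to 10 kb (2.24 to 3.91), 2.96 at 10 to 30 kb (2.64 to 3.32) and 3.24 at 30 to 100 kb (3.03 to 3.47). In longer genes it was 3.61 (3.39 to 3.84), 3.71 (3.46 to 3.97) and 3.74 (3.31 to 4.21). Relative to each library's own mean over all genes, genes of 10 to 30 kb stood at 0.861 ± 0.0897 and genes of 100 to 300 kb at 1.05 ± 0.0126 (SD, n = 3), the longer class being the higher in 3 of 3 libraries. Genes over 1000 kb stood at 1.35, 0.849 and 1.07 in replicates 1 to 3, a spread that takes in the mean of the shortest class (0.899 ± 0.0846). The 2 longest classes made up 2.61% and 0.300% of genes, yet held 23.9% and 7.63% of the interior bases and 25.6% and 8.23% of the peaks.

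**Figure D2:**
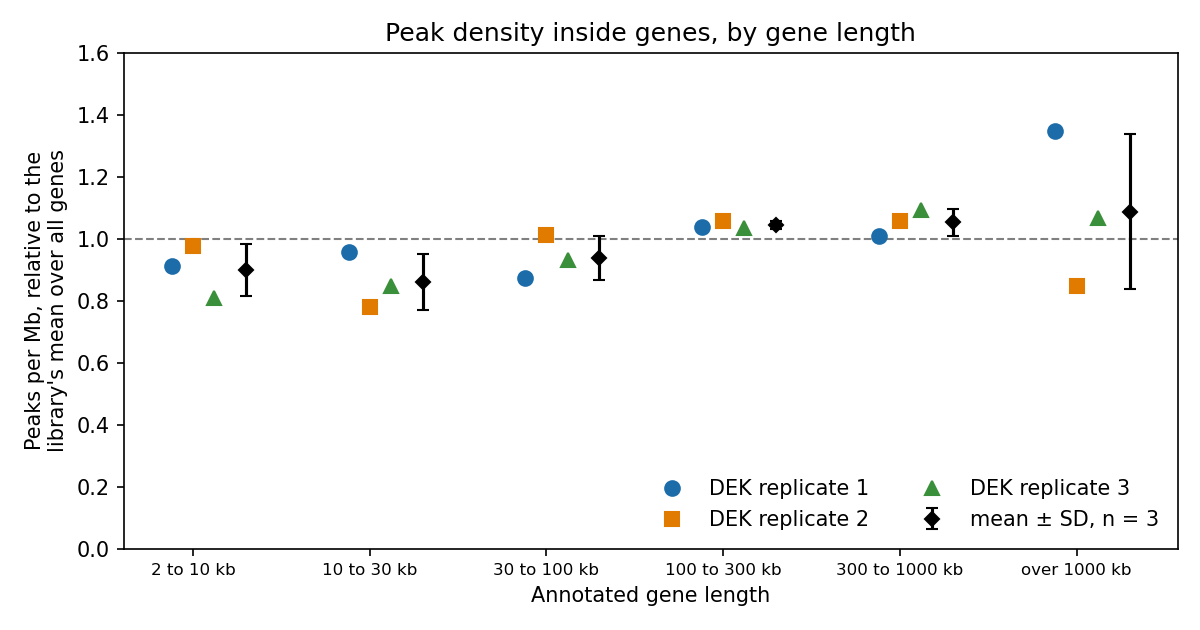
Each point is the number of single-library DEK peaks per Mb of gene interior in 1 library, divided by that library's mean over all genes (vertical axis), for 6 classes of gene length. Diamonds are the mean ± SD of 3 libraries and the dashed line marks 1, and the class means lie between 0.861 and 1.09.

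Within a gene the peaks were spread over its whole length. For the 2554 pairs of peak and host with a known strand, the gene was divided into 5 segments of equal length. From the start on they held 19.8% ± 2.91, 20.3% ± 1.10, 19.9% ± 1.17, 22.4% ± 1.14 and 17.6% ± 3.04 (SD, n = 3). The fourth segment was the only one on the same side of an even share in each library, at 23.5%, 22.4% and 21.3%. Long non-coding RNA genes overlapped 140 peaks (4.26%), close to the 4.36% of interior bases that they cover. Pseudogenes overlapped 6 peaks (0.18%), where they cover 0.386% of interior bases. MicroRNA genes overlapped 0, and the share of bases that they cover was not computed.

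Peaks of different libraries recurred in the same genes, at places that the rule required not to overlap. Of the hosts, 393 held peaks of 2 or 3 libraries (2.14% of all genes) and 54 held peaks of all 3 (0.295%). Replicates 1 and 2 shared 80 genes, 13.8% and 13.5% of their hosts. Replicates 1 and 3 shared 217, 37.5% of the hosts of replicate 1 and 14.2% of those of replicate 3, and replicates 2 and 3 shared 204, 34.3% and 13.3%. Genes with 2 or 3 libraries made up 0% at 2 to 10 kb, 1.15% at 30 to 100 kb, 32.4% at 300 to 1000 kb and 80.0% over 1000 kb. The 54 genes with 3 libraries included 18 of the 55 genes over 1000 kb, 24 of 300 to 1000 kb, 10 of 100 to 300 kb and 2 shorter ones.

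The rule kept overlapping peaks out, and the gaps between the remaining ones were smaller in short genes. In the 393 genes the closest peaks of different libraries had a median gap of 45.8 kb. The gap was under 10 kb in 68 genes (17.3%), under 1 kb in 18 and over 100 kb in 95 (24.2%). In the 63 of these genes that were under 100 kb long, the median gap was 9.33 kb. There it was under 10 kb in 32 genes (50.8%) and under 1 kb in 9. Over all 3287 peaks, 28 lay within 500 bp of a peak of another DEK library and 45 within 1 kb. The closest neighbours are named after their values were seen: the smallest gap, 40 bp, was in the haem synthesis gene Fech. The metalloprotease gene Adam12 and the phosphoinositide phosphatase gene Fig4 each had a gap of 46 bp, and Zfp469, Spats2, Usp29 and Agap1 followed with 64 to 94 bp. The closest in a gene with 3 libraries, 99 bp, was in the cell cycle kinase gene Cdk6. In Cdk6 the peak of replicate 2 lay at chr5:3437330-3437864 and that of replicate 1 at chr5:3437964-3438261, and H3K4me3 marked a gene end in both genotypes.

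The genes with most peaks were long, between 440 and 2241 kb. Rbfox1 (chr16:5884793-7412480, 1528 kb) held 17, with 1, 2 and 14 in replicates 1 to 3. Its peaks lay from 89.3 to 1499 kb from the start at −log10 q of 1.96 to 8.87. Lsamp, a neuronal adhesion gene of 2197 kb, held 10 (3, 0 and 7), and Csmd1, a complement-control gene of 1643 kb, held 10 (1, 0 and 9). Each of these 3 genes had its largest count in replicate 3, the longest list. Dpp10, an auxiliary subunit gene of potassium channels, and the zinc-finger gene Tshz2 held 9 each in 2 libraries. Fhit, a diadenosine hydrolase gene at a known fragile site, held 8 (3, 0 and 5).

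Several of the genes hit in all 3 libraries encode adhesion and synapse proteins. Cntnap2, a neurexin-like adhesion gene of 2241 kb (chr6:45060061-47301393), held 2, 3 and 4 peaks. Robo2, a Slit receptor gene of axon guidance, and Pcdh15, a protocadherin gene of inner-ear hair cells, each held 4, 2 and 1. In both, replicate 1 gave most peaks although its list was about as short as that of replicate 2. Pcdh15 held 5 peaks in all when libraries within 500 bp counted as the same place. Gpc6, which encodes a cell-surface proteoglycan, held 2, 2 and 4. Dlg2, a postsynaptic scaffold gene, and Ctnna3, a catenin gene, each held 1, 2 and 3.

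The other leading genes of this group act elsewhere in the cell. Macrod2, an ADP-ribose hydrolase gene of 1998 kb, held 3, 1 and 5. Wwox, an oxidoreductase and tumour suppressor gene at a known fragile site (chr8:114439635-115352712), held 1, 2 and 6. Hdac9 held 1, 2 and 4 in 870 kb, and L3mbtl4, which encodes a protein with chromatin-reading MBT domains, held 2, 2 and 3 in 511 kb. Ptprt held 2, 2 and 2, and Camta1 1, 1 and 4. In Hdac9 the strongest peaks were both from replicate 2, at chr12:34472890-34473412 (−log10 q 10.2) and chr12:34599824-34600292 (9.10).

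**Figure D3:**
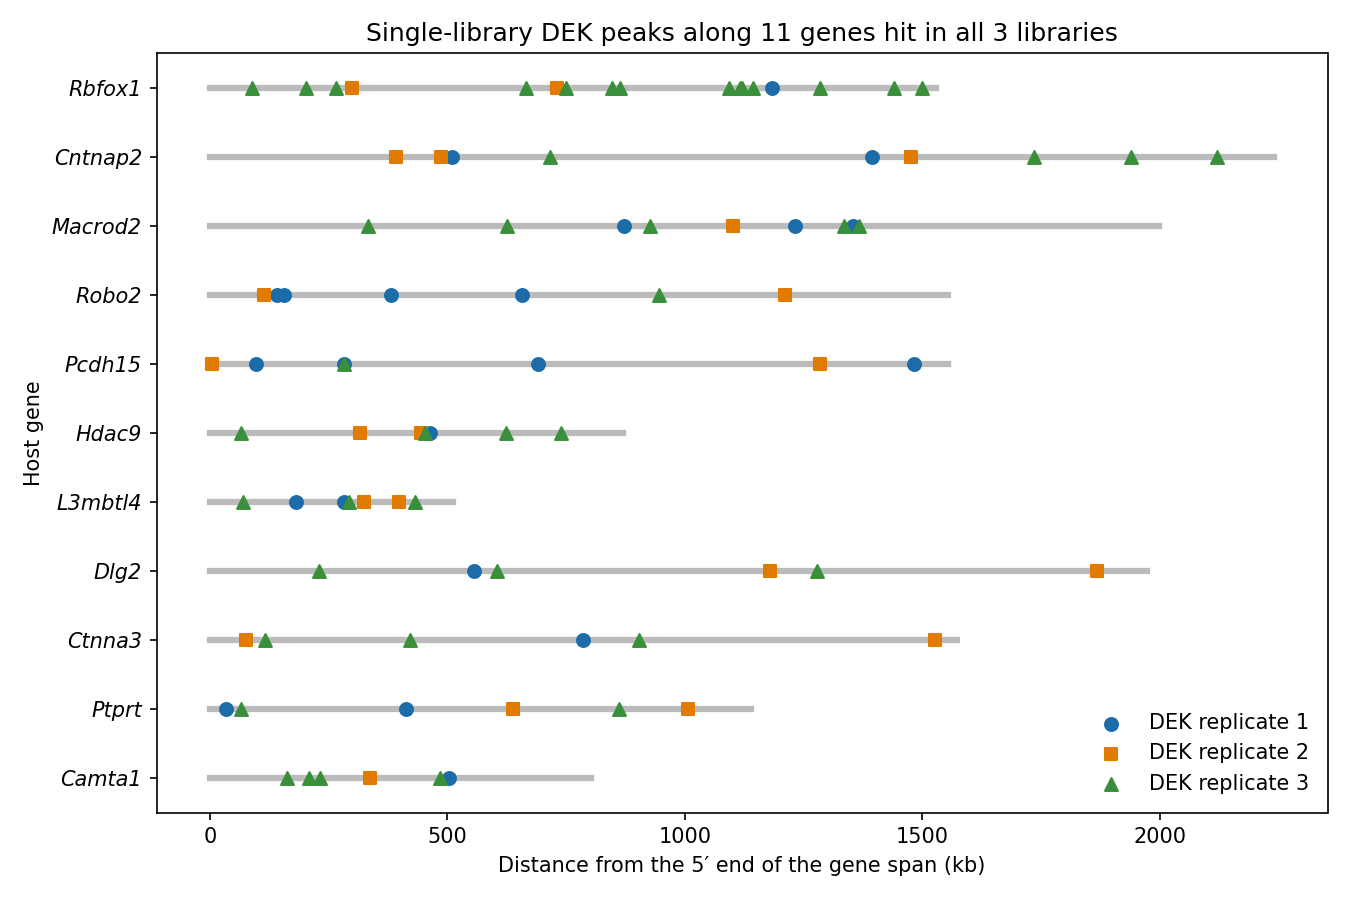
Each row is a gene hit in all 3 libraries, drawn to its annotated length in kb from its start (grey line), for the 11 of the 15 such genes with most peaks that had a RefSeq start. Symbols mark single-library DEK peaks of replicates 1 to 3. The 17 peaks of Rbfox1 are spread from 89.3 to 1499 kb. Peaks that overlap between libraries are left out by the rule, so different places are set by the choice of members. In Pcdh15 a peak of replicate 1 and one of replicate 3 lie 313 bp apart.

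H3K4me3 at the gene end was less frequent in host genes than in the rest. A peak of fl LSK lay within 1 kb of a gene end in 49.4% of all genes and in 969 of the 2254 hosts (43.0%, 40.9 to 45.1%). Genes without a DEK peak of this kind had 50.4%, hosts of 2 or 3 libraries 33.3% (28.7 to 38.2%) and hosts of 3 libraries 15 of 54 (27.8%, 16.5 to 41.6%). By library, the share of hosts was 41.4%, 42.1% and 40.9% (mean 41.5% ± 0.583, SD, n = 3). In cKO the value was 42.0% of hosts and 48.2% of all genes. The gene table has no strand, so either end was counted. With the RefSeq start alone, 867 of 1750 hosts (49.5%) and 6890 of 12764 genes without a peak (54.0%) were marked, and 9 of 43 hosts of 3 libraries (20.9%).

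Gene length moves with both measures. Among genes of 100 to 300 kb, 48.3% of hosts and 49.0% of genes without a peak were marked, and over 1000 kb 10 of 54 hosts (18.5%). The gap was wider in shorter genes: 28.3% of hosts against 42.0% at 2 to 10 kb, 44.1% against 53.6% at 10 to 30 kb, and 48.9% against 56.6% at 30 to 100 kb. Among the genes with 3 libraries named above, Wwox, Dlg2, Ctnna3 and Camta1 had a fl H3K4me3 peak at an end. In Camta1 and Ctnna3 the mark lay at the RefSeq start, whereas in Dlg2 it lay at the end shared with the neighbouring gene Tmem126b.

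Density sets the comparison per base of gene interior, though marked and unmarked genes still differ in their mix of lengths. Genes with H3K4me3 at an end held 3.09 peaks per Mb of interior (2.92 to 3.26) and genes without it 3.75 (3.59 to 3.91). The values with and without the mark were 0.622 and 0.723 in replicate 1, 0.666 and 0.714 in replicate 2, and 1.80 and 2.31 in replicate 3. The ratio was below 1 in 3 of 3 libraries, with a mean of 0.857 ± 0.0772 (SD, n = 3). An exact two-sided sign-flip permutation test gave p = 0.25, the smallest value that this test can give with 3 libraries, so it cannot reach significance here. Within 30 to 100 kb the ratio was 0.756 ± 0.0203 and below 1 in each library, and within 100 to 300 kb it was 1.01 ± 0.155, below 1 in 1 of 3. Genes with H3K27ac as well as H3K4me3 held 3.10 per Mb and genes with H3K4me3 alone 3.08.

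**Figure D4:**
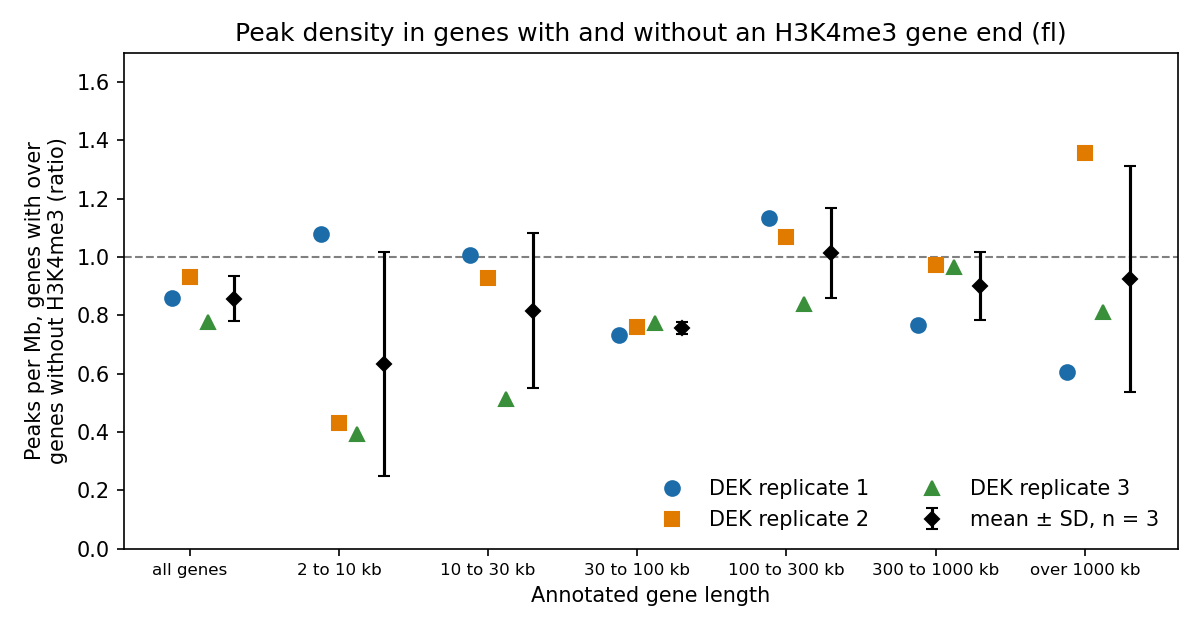
Points give, for each library, the peaks per Mb in genes with a fl H3K4me3 peak at a gene end divided by those in genes without one, over all genes and in each length class. Diamonds are the mean ± SD of 3 libraries and the dashed line marks equal density. All 3 libraries lie below 1 over all genes and at 30 to 100 kb and 300 to 1000 kb, and on both sides of 1 in the other classes.

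H3K27ac at host gene ends differed between the genotype libraries, as it did over all genes. In fl it marked 24.9% of all genes and 454 hosts (20.1%), and in cKO 48% of all genes and 1093 hosts (48.5%). A peak in cKO only was found at 646 hosts (28.7%), against 23.5% of all genes, and a peak in fl only at 7 hosts. Within length classes the cKO-only share had no single direction. Hosts had 22.6% against 18.3% of genes without a DEK peak of this kind at 2 to 10 kb, and 17.1% against 21.7% at 10 to 30 kb. The shares were 28.5% against 27.2% at 30 to 100 kb, 34.1% against 32.3% at 100 to 300 kb, and 29.3% against 35.4% at 300 to 1000 kb. The cKO list was longer, with 16331 peaks against 10494, and with 1 library per genotype the difference has no replicate check. H3K9ac marked 12 hosts in fl and 28 in cKO, where 0.742% and 1.17% of all genes had it. No mark of any kind lay at either end of 1000 hosts (44.4%), against 41.4% of all genes, and of 32 of the 54 hosts of 3 libraries (59.3%).

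Few of the peaks themselves carried H3K27ac. An H3K27ac peak overlapped 103 of them in fl (3.13%, 2.57 to 3.79%), against 7.2% of all usable DEK peaks, and 95 in cKO (2.89%, 2.34 to 3.52%), against 7.03%. In all 117 overlapped either list (3.56%), 81 of them in both, 22 in fl alone and 14 in cKO alone. Those marks covered 0.111% and 0.202% of gene-interior bases. Single-library peaks outside genes overlapped H3K27ac in 5.83% of cases and gene-body peaks of 2 or 3 libraries in 19.8%. Single-library gene-body peaks with H3K9ac did so in 13.6%. The rule leaves out both of these gene-body sets, so the difference from all usable DEK peaks is in part set by the choice of members. Hosts of the overlapping peaks had H3K4me3 at an end in 47 of 114 cases (41.2%). The share was close to the 42.8% of the 2203 hosts of peaks without H3K27ac. Genes that hold peaks of both kinds are in both groups.

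The overlap came mainly from replicate 3. It was 9 peaks (1.40%) in replicate 1, 8 (1.21%) in replicate 2 and 100 (5.04%) in replicate 3. Each library was ordered by −log10 q and divided into 4 classes of equal size. From the weakest to the strongest class the share was 0.605%, 4.03%, 7.48% and 8.07% in replicate 3. In replicate 1 the strongest class had 3.73% (6 peaks, 1.38 to 7.94%) and the other classes 0.621% each (1 peak, 0.0157 to 3.41%). These intervals overlap. In replicate 2 the classes had 0%, 1.21%, 2.42% and 1.21%, with intervals that overlap throughout. A count of 0 among 165 peaks allows a share of up to 2.21%.

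**Figure D5:**
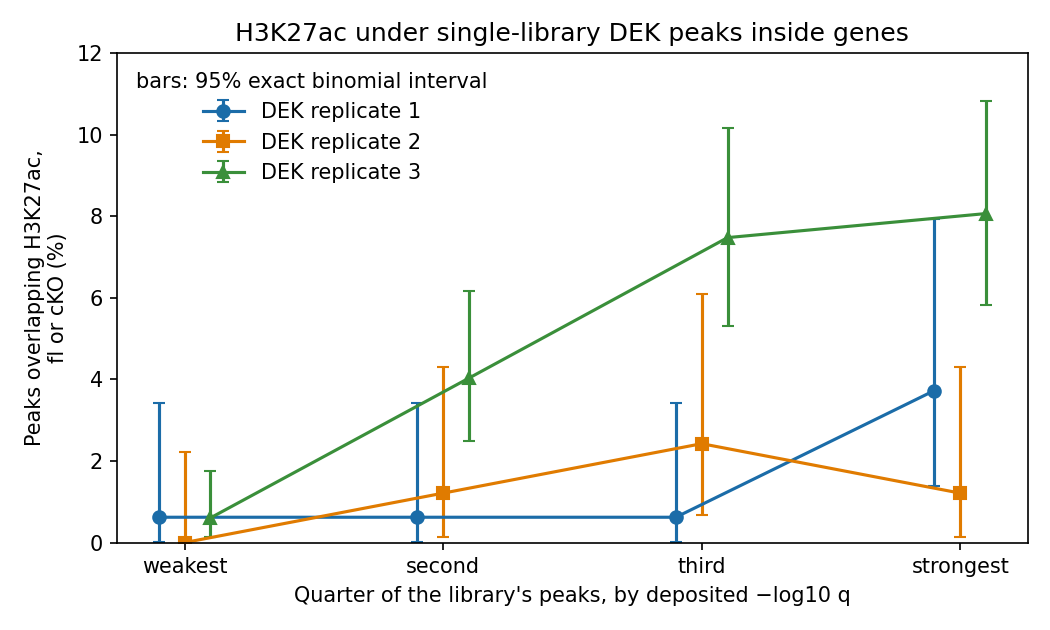
Points give the percentage of single-library gene-body DEK peaks that overlap an H3K27ac peak of either genotype, in 4 classes of each library ordered by the deposited −log10 q, with 95% exact binomial intervals. Replicate 3 goes from 0.605% to 8.07%, and replicates 1 and 2 stay below 4% in every class.

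The 10 peaks with the strongest H3K27ac lay between 6.76 and 291 kb from the nearest gene end. By the highest −log10 q of H3K27ac the first was in Dnm3, which encodes a dynamin (DEK peak chr1:162338609-162339107, replicate 3), 139 kb from the nearest gene end, with H3K27ac at −log10 q 53.7 in fl and 93.3 in cKO. Next came the potassium channel gene Kcnc2 (91.4 in cKO), the NADPH oxidase gene Nox4 (88.3) and the transcription factor gene Sox6 (75.3). Dcaf6, Hivep1, the proteoglycan gene Gpc5, Sntb1, the overlapping models Gm37013, Gm38666 and Gm38667, and the adhesion receptor gene Adgrb3 followed, from 73.9 down to 67.2. Those of Sox6 and Hivep1 came from replicate 1 and the other 8 from replicate 3, and each of the 10 places carried H3K27ac in both genotypes. The peak in Hivep1 was also the strongest of the single-library gene-body DEK peaks of replicate 1.

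H3K4me3 overlapped 16 peaks (0.487%), 13 in fl and 10 in cKO, and covered 0.196% of interior bases in fl. They lay in Atp5d, Snx18, Robo2, Sh2b2, Col23a1, Stk4, Hnrnpl, Gm36722, Gm33989, Plek, Nr4a1, Cdkn1a, Slc29a2, Akna, Gata2 and Zfpm1, named after their values were seen. Near the inner starts printed above, the peak of replicate 2 in Hnrnpl (chr7:28810246-28810874, −log10 q 3.31) and that in Gm33989 (chr7:39552775-39553477, 3.21) overlapped H3K4me3 in both genotypes. The peak in Hnrnpl ended before the start, whereas that in Gm33989 ran across it. Over all the peaks, 15 overlapped a RefSeq start window and 30 (0.913%) lay within 1 kb of a RefSeq start, although every one lay over 1 kb from the ends of gene spans.

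Of the 6 genes central to work on DEK in these cells, only the cell cycle inhibitor gene Cdkn1a held such a peak, and Dek, Ncor1, Akt1, Akt2 and Ccnb2 held 0 by the rule. The list of replicate 3 also has a row inside Akt2 (chr7:27609566-27610553), which lacks the dot and was not counted. Its rows at chr7:27590987-27592857 and chr12:112674445-112675692 cover an end of Akt2 and of Akt1, so they were not gene-body peaks. Both rows are irregular, since their score is not 10 times the −log10 p. Rows at the same coordinates, without the dot, stand in the list of replicate 1 and, for Akt1, of replicate 2. The Cdkn1a row (chr17:29093601-29094793, replicate 3) is 1193 bp wide, where 726 rows of like −log10 p have a median of 215 bp and a widest of 688 bp. A row in Gata2, a stem cell transcription factor gene (chr6:88198105-88199206, replicate 3), is 1102 bp wide against a median of 234 bp and stands out of coordinate order in its list. A row in the cathepsin gene Ctsh is 1192 bp wide against 211 bp, where the widest like row has 1233 bp. These widths were noticed after the values were seen, and whether the rows were made in the same way as the rest of the list is not known. Without these 3 rows 3284 peaks and 2251 hosts remained. The counts for Cdkn1a and Gata2 rest on those rows alone. Both rows overlap a RefSeq start of their own gene that lies inside its span, and H3K4me3 peaks of both genotypes, so they are peaks at a start that the distance rule did not remove.

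Blood stem cell genes were among the hosts. Of 35 stem cell factors and receptors, with a median length of 57.4 kb, 13 were hosts (37.1%). The share was 12.3% of all genes and 15.1% of those of 30 to 100 kb. That class is no matched background, since the list also holds far longer hosts, such as Zbtb20 (758.7 kb), Mecom (558.5 kb) and Nfia (540.8 kb). The list held 23 peaks in 4.75 Mb (4.84 per Mb, 3.07 to 7.27, against 3.47 over all genes). Mecom, a zinc-finger regulator of stem cell self-renewal, held 1 peak of replicate 2 and 3 of replicate 3, and the first (chr3:30030388-30030716) overlapped H3K27ac. The transcription factor gene Nfia held 2 and 2 in the same libraries, Zbtb20 held 1 and 1, and Prdm16 held 2 of replicate 3. Erg and the GATA cofactor gene Zfpm1 each held 1 of replicate 1 and 1 of replicate 3. Runx2 and Fli1 held 1 of replicate 2, at −log10 q 3.07 and 2.62, and Meis1, Tek, Slamf1, Gata2 and Gfi1 held 1 of replicate 3. Those of Meis1 and Gfi1 stood at 2.04, the lowest value among the peaks of replicate 3. The values were 7.125 in Tek, 5.76 in Slamf1 and 6.68 in Gata2. H3K4me3 marked an end of 8 of the 13 hosts and of 26 of the 35 genes. No gene of this list held peaks of all 3 libraries.

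Blood signalling genes, with a median length of 199.4 kb, came to 17 hosts of 30 (56.7%). The share was 12.3% of all genes and 42.1% of those of 100 to 300 kb. This list too holds longer hosts, such as Arhgap26 (774.7 kb) and Arhgap15 (647.2 kb). It held 23 peaks in 7.85 Mb (2.93 per Mb, 1.86 to 4.40). Inpp4b, a phosphoinositide phosphatase gene, held 2, 1 and 2, the only member of the list with 3 libraries. Arhgap26 held peaks of replicates 2 and 3, and the exchange factor gene Vav3 held 2 of replicate 3. Single peaks lay in Arhgap15, Prkce, Camk1d, Prkcb, Skap1, Fyn and Inpp5d (replicate 1), in Elmo1 and Pik3cb (replicate 2), and in Dock2, Tcf12, Camk4, Dock8 and Rap1gds1 (replicate 3). Their −log10 q ran from 1.98 (Prkce and Inpp5d) to 6.36 (Prkcb) in replicate 1. It was 3.135 in both genes of replicate 2, and ran from 2.04 (Rap1gds1) to 10.2 (Dock2) in replicate 3. H3K4me3 marked 13 of the 17.

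Chromatin regulators, with a median length of 116.5 kb, came to 15 hosts of 38 (39.5%, against 12.3% of all genes and 42.1% of those of 100 to 300 kb), with 28 peaks in 5.78 Mb (4.84 per Mb, 3.22 to 7.001). Beside Hdac9, the deacetylase gene Hdac4 held 2 of replicate 1 and 1 of replicate 3, and Cdyl 2 of replicate 2 and 1 of replicate 3. Arid1b, Chd7 and the acetyltransferase gene Kat2b held 1 peak in each of 2 libraries. Single peaks lay in Setbp1 and Chd2 (replicate 1), in Kdm4c (replicate 2), and in Chd9, Jarid2, Jmjd1c, Arid2, Nsd1 and the Polycomb methyltransferase gene Ezh2 (replicate 3). Their −log10 q was 3.325 in Setbp1, 1.98 in Chd2 and 6.30 in Kdm4c. In replicate 3 it ran from 2.04 (Jarid2, Arid2 and Nsd1) to 6.97 (Ezh2). H3K4me3 marked 10 of the 15 hosts and 30 of the 38 genes.

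Of gene families known from the nervous system, 51.4 to 68.2% of the genes were hosts, against 12.3% of all genes. These families are long, with median lengths of 147.7 to 736.5 kb, and 42.1% of all genes of 100 to 300 kb and 79.3% of those of 300 to 1000 kb were hosts. H3K4me3 marked 48.7% and 26.6% of all genes in those length classes. Glutamate receptors had 14 hosts of 25 (3.98 per Mb, 2.79 to 5.51), Grm7, Grid1 and Grin2a among them, and 0 of the 25 were marked. Neurexins, neuroligins, contactins and other neuronal adhesion genes listed with them had 15 hosts of 22 (3.68, 2.83 to 4.71). Cntnap2 and, of the other adhesion genes, Lsamp and Ntm were among them, and 1 of 22 was marked. Cadherins had 19 of 31 (4.47, 3.26 to 5.98), led by Pcdh15, Fat3, Cdh13 and Pcdh9, with 0 of 31 marked. Axon guidance genes had 18 of 35 (3.00, 2.11 to 4.13), led by Robo2, Dcc, Plxna4 and Epha6, and 9 of 35 were marked. Potassium and calcium channels had 24 of 36 (3.42, 2.47 to 4.63), led by Kcnip4, Kcnma1, Cacna2d3 and Kcnb2, and 3 of 36 were marked.

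Very long genes of fragile sites had 28 hosts of 30 (93.3%), where 98.2% of all genes over 1000 kb were hosts, with 145 peaks in 36.1 Mb (4.02 per Mb, 3.39 to 4.73). They were led by Rbfox1, Csmd1, Macrod2 and Dpp10, and 7 of the 30 held peaks of all 3 libraries. Their median length was 1140 kb, and H3K4me3 marked 10 of the 28 hosts. The density intervals of all 10 lists include the value over all genes, 3.47 per Mb. All lists were drawn up with earlier results of these data known, and their densities are a description.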

How the data were processed

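DEK CUT&Tag of 3 fl HSC libraries and 6 histone mark libraries of fl and cKO cells was used, 1 peak list each. The submitters' processing notes name mm10, MACS2, Picard and Bowtie2. Versions, order of steps, control track and thresholds: not given in the sources used here. In the DEK lists the deposited score is the −log10 p times 10, within rounding, apart from some irregular rows. None of those rows is among the peaks counted here. The deposited ratio is the fold enrichment over the caller's local background, and the −log10 p and −log10 q (from p-values and q-values) are the authors' own. DEK strengths were compared only within a list. The order by H3K27ac takes the higher −log10 q of the fl and cKO lists. Read depth is unknown.

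Rows with a dot in column 6 were kept. Overlap means at least 1 bp. Gene spans and starts came from RefSeq (GRCm38.p6): 20665 protein-coding genes, 18328 with interior bases, 16457 matched to a start. Gene-end marks were peaks within 1 kb of either end. Densities are peaks per Mb of interior bases, with 95% exact Poisson intervals, and shares have Clopper-Pearson intervals. Scripts were checked on simulated data and used scipy 1.17.1, pandas 2.3.3, matplotlib 3.10.9 and numpy 2.4.6 under Python 3.11.15.

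Members, 10 gene lists and tests were chosen with earlier results of these data known. Named were the 15 genes with most peaks among those with 3 libraries, the 10 genes with most peaks, and per library the hosts of the 5 strongest. Also named were the hosts of the 10 with strongest H3K27ac, hosts in the study, stem cell, signalling and chromatin lists, the 4 leading genes of other lists, and peaks next to the distance limit. Some genes that the rule selects are not reported here. The p-value measures only the spread between these libraries.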

Additional observations from a re-analysis of the deposited data

How the results depend on the processing

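The 8 summary values were recomputed under other choices. Of 100 recomputed values, 76 stayed within 1.5 times the count or 1 SD between libraries and 24 moved. Only the density ratio by H3K4me3 has a direction that could change, and it stayed below 1 under every choice. With DEK lists cut to equal length there were 1857 peaks (31.6% of usable peaks), 1449 hosts, 209 hosts of 2 or 3 libraries and 42.2% of hosts with H3K4me3. With a −log10 q of at least 3 there were 2099 peaks (31.4%), 201 hosts of 2 or 3 libraries and 41.6% with H3K4me3. Beyond 5 kb from gene ends the share of usable peaks was 30.1%, and with no H3K9ac filter 36.4%. Counted at the RefSeq start, H3K4me3 marked 49.5% of hosts, and with a 2 kb window 45.3%, where H3K27ac marked 22.1%. Without the 3 wide rows of replicate 3, an alternative chosen after seeing the data, there were 3284 peaks (33.5%), 2251 hosts and 393 hosts of 2 or 3 libraries. The cause of these moves was not tested, beyond the smaller number of peaks that the first settings leave.

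Leaving out each replicate in turn gave 1382 to 2691 peaks, 1152 to 1941 hosts and 88 to 221 hosts of 2 or more libraries, each lowest without replicate 3. The share of usable peaks was then 34.3 to 34.8%, hosts with H3K4me3 42.0 to 43.5%, hosts with H3K27ac 19.5 to 21.2%, peaks with H3K27ac 2.24 to 4.35%, and the density ratio by H3K4me3 0.826 to 0.926. Rbfox1 held 3 peaks without replicate 3 and 6 with lists of equal length. With lists of equal length 19 of the 54 genes with 3 libraries remained, and with a −log10 q of at least 3, 24 remained. No paired analysis was possible because no other group of samples shares the replicate numbers of the DEK libraries, and the density ratio compares genes within each library. Unknown depth, 3 DEK libraries and 1 library per mark and genotype limit every value.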
